A study of Mus musculus with 24 samples.

Results

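The 8 genes described here encode proteins of the cell junctions and growth factor receptors of blood vessel endothelium, and they were followed through every group of a study of the adult mouse olfactory mucosa. The members were the junction genes Pecam1, Esam, Cldn5 and Cdh5 and the receptor genes Flt1, Kdr, Tek and Tie1, chosen by name, with every probe annotated to them. They were read by 13 probes, 1 to 3 per gene, of the 45281 probes and 19057 named genes on the array. Of the 8 genes, 5 (Pecam1, Esam, Cldn5, Flt1 and Tek) passed the filter on dim probes and were tested among 11870 genes. Cdh5, Kdr and Tie1 did not pass it and are described by their signals only.

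Messenger RNA was measured on Illumina bead arrays in 8 groups of 3 arrays. OM was the whole dissociated mucosa of wild-type F1 mice (129S1/SvImJ x C57BL/6J), sorted only for live cells (propidium iodide negative). Sox2GBC, the group named for globose basal cells, the dividing neurogenic progenitors of the epithelium, came from heterozygotes of ∆Sox2-GFP x FVB/NJ as low-GFP cells that were negative for E-cadherin and CD54 and low in scatter. Sus, the group named for sustentacular supporting cells, came from the same cross as high-GFP, CD54-negative cells. Neurog1-Ctrl held GFP-positive, low-scatter neuronal precursors of heterozygous Neurog1-GFP x FVB/NJ mice, and OMP held GFP-positive, low-scatter mature neurons of heterozygous ∆OMP-GFP x CD-1 mice. Neurog1-OBX and OMP-OBX were the same gates on the mucosa ipsilateral to removal of 1 olfactory bulb, taken 3 weeks after surgery. All mice were 8 to 12 weeks old, every sort was live, and each mucosal replicate pooled several mice. The labels do not say whether replicates shared animals or days, so p-values measure the spread between these arrays. mREF was a commercial pool of RNA from 11 cultured mouse cell lines, and its 3 arrays are technical repeats. No group was gated for or against an endothelial antigen other than CD54, the product of Icam1, which endothelium among other cells can carry. The sorts against OM differ in mouse line as well as in gate, and these cannot be told apart, whereas Sus and Sox2GBC share 1 line.

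Endothelial cells line blood vessels and are held together by junctional adhesion proteins. VE-cadherin (Cdh5) forms their adherens junctions, claudin-5 (Cldn5) seals their tight junctions, and PECAM-1 and ESAM are immunoglobulin-like adhesion molecules at the same contacts, both also found on platelets and PECAM-1 on leukocytes. FLT1 and KDR are receptors for vascular endothelial growth factors, and TIE1 and TEK (TIE2) form the angiopoietin receptor system that maintains vessel stability. The lamina propria under the olfactory epithelium is richly vascularised, and the neural epithelium itself is not. In bulk RNA, fewer cells of a type and less RNA per cell cannot be told apart.

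Signals are given on a log2 scale after background correction and quantile normalization, and a probe counts as detected on an array at a detection p under 0.01 against that array's negative control beads. Between 33.9% and 48.3% of probes were detected per array, and replicates correlated with r of 0.949 to 0.992 across genes. The negative control beads had a spread of 4.41 to 24.86 intensity units by array, and arrays of 1 group fell into different noise classes. Replicate 1 of OM, OMP and Sus lay in the class with the smallest spread (4.41 to 4.99) and replicates 2 and 3 of OM, replicate 2 of OMP and replicate 3 of Sus in the class with the widest (16.02 to 24.86). Several of these arrays stood apart from their groups in endothelial signal, so results that rest on them are given with and without them. The Neurog1 probe was detected on every array of Neurog1-Ctrl and Neurog1-OBX and on no other mucosal array. Sox2 averaged 9.73 ± 0.23 (SD, n = 3) in Sus, 8.40 ± 0.21 in OM and 6.23 ± 0.97 in Sox2GBC, so the Sox2GBC group was below the whole mucosa in the gene whose reporter selected it. Cdh1, the gene of E-cadherin, averaged 10.08 ± 0.71 in Sox2GBC, which was gated negative for that protein, and 9.69 ± 0.54 in OM. Omp, the mature neuron gene, lay between 15.21 and 15.46 in the 6 mucosal groups other than Sus and did not separate them. Of 10 mature neuron genes, 8 fell in Sox2GBC against OM (median -1.58), where 32.8% of all tested genes were called in either direction. In OMP against OM 2 of the 10 rose, where 20.5% of all tested genes were called in either direction.

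**Figure D1:**
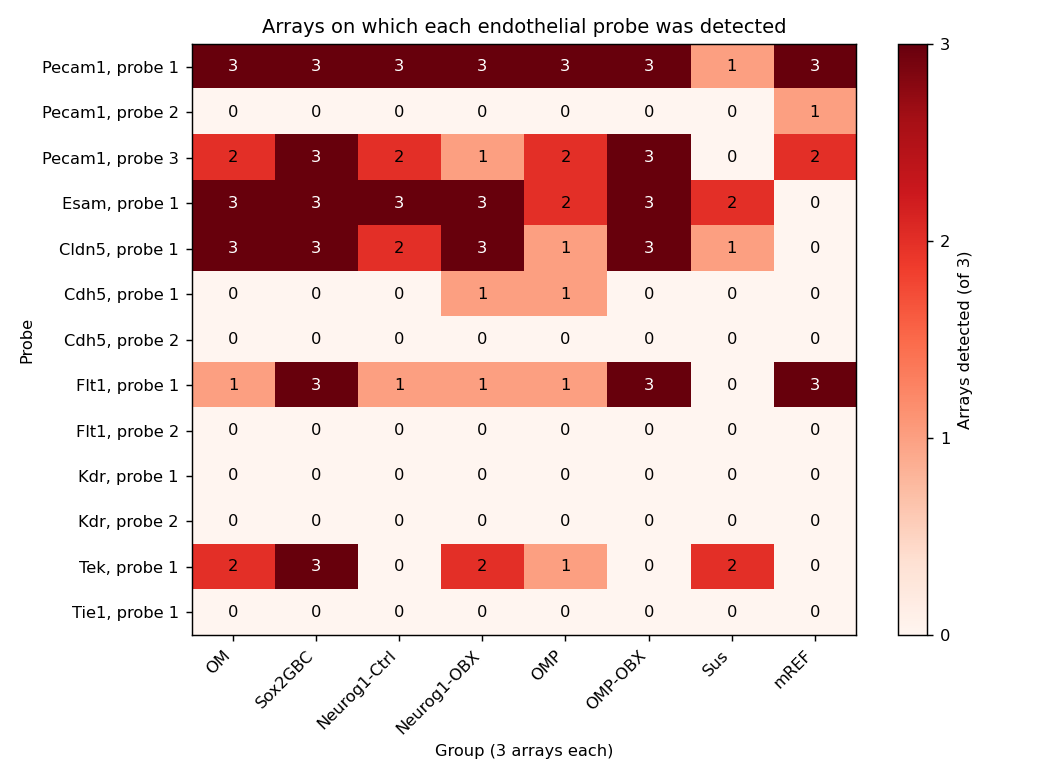
Number of arrays, of 3, on which each of the 13 probes was detected (rows) in each of the 8 groups (columns), with deeper red for more arrays. Pecam1 probes 1 and 3, Esam, Cldn5, Flt1 probe 1 and Tek were each detected on all 3 Sox2GBC arrays. Cdh5 probe 2, both Kdr probes, the Tie1 probe and Flt1 probe 2 were detected on no array.

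Promoters of 5 of the 8 members (Cldn5, Flt1, Kdr, Tek and Tie1) were matched by symbol in RefSeq (GRCm38.p6), as windows of 300 bases that run from 250 before to 50 after the annotated start. Those of 3 tested members are shown 5′ to 3′ on the gene's strand, so that a tight junction gene can be set beside a VEGF receptor and an angiopoietin receptor. Capitals mark each match, on either strand, to the ETS core GGAA (TTCC on the reverse strand) or to the cAMP response element TGACGTCA, and no match of one overlapped the other. ETS factors include the endothelial regulators ERG and ETS1.
Cldn5, chr16:18776597-18776896, plus strand: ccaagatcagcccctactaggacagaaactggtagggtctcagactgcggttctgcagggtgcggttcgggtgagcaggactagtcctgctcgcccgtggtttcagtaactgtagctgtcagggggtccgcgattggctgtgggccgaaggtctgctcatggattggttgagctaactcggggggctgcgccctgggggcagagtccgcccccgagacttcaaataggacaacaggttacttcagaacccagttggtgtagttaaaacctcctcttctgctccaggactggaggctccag
Flt1, chr5:147725962-147726261, minus strand: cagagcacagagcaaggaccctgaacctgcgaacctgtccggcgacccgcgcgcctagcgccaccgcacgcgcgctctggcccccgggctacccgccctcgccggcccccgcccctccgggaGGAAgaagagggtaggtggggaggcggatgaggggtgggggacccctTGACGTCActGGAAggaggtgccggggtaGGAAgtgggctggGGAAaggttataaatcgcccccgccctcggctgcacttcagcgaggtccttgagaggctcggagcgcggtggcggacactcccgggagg
Tek, chr4:94739039-94739338, plus strand: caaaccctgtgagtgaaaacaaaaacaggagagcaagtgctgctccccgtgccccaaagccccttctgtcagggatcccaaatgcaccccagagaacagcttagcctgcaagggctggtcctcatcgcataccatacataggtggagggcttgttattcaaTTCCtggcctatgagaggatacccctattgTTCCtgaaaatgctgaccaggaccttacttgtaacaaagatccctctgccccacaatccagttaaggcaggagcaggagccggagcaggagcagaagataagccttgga
The Flt1 window held 4 ETS core matches and 1 cAMP response element, the Tek window 2 ETS core matches and the Cldn5 window 0 of either. Of 32851 promoter windows of the same length, 96.0% held at least 1 ETS core match, with a median of 3, and 1.79% held the cAMP response element. The 4 letters of the core are thus common, at least 4 matches were present in 46.3% of windows, and a match is a description of letters rather than of a bound site.

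Cldn5, the tight junction gene, had the widest range of the tested members. Its 3 Sox2GBC arrays read 8.93, 9.72 and 9.31. The OM arrays read 5.13, 7.45 and 8.59, the Neurog1-Ctrl arrays 6.05, 7.58 and 6.51, and the Neurog1-OBX arrays 8.55, 7.42 and 6.35. The Sox2GBC arrays were thus above every other array of the mucosa, and replicate 1 of OM was low, at a deposited intensity of 13.1, beside replicates at 179 and 485. The OMP arrays read 4.84, 8.48 and 4.83, the OMP-OBX arrays 7.37, 8.48 and 7.26, and the Sus arrays 4.55, 4.74 and 5.89. Replicate 2 of OMP was as high as the highest OMP-OBX array while the other 2 were not detected, and only replicate 3 of Sus was detected. In deposited intensity the probe ran from -3.58 in Sus to 890 in Sox2GBC. The order of the group means was Sox2GBC (9.32 ± 0.39, SD, n = 3), OMP-OBX (7.71 ± 0.67), Neurog1-OBX (7.44 ± 1.10), OM (7.06 ± 1.76), Neurog1-Ctrl (6.71 ± 0.79), OMP (6.05 ± 2.10) and Sus (5.06 ± 0.72), and each group below Sox2GBC overlapped the next.

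Esam, the junction adhesion gene, was detected on 19 of 21 mucosal arrays. It read 8.24, 9.11 and 8.78 in Sox2GBC, 7.45, 8.05 and 7.50 in Neurog1-Ctrl and 8.54, 7.85 and 8.08 in Neurog1-OBX. Every array of Sox2GBC, Neurog1-Ctrl, Neurog1-OBX, OM and OMP-OBX passed detection, and Neurog1-OBX overlapped both Sox2GBC and Neurog1-Ctrl. OM read 6.04, 7.50 and 7.70, OMP 5.75, 8.25 and 4.96, OMP-OBX 7.15, 7.58 and 6.85, and Sus 5.76, 5.22 and 6.40. The lowest OM array and the highest OMP array were the same libraries as for Cldn5. Group means fell from 8.71 ± 0.44 in Sox2GBC through 8.15 ± 0.35 in Neurog1-OBX, 7.67 ± 0.33 in Neurog1-Ctrl, 7.19 ± 0.37 in OMP-OBX, 7.08 ± 0.91 in OM and 6.32 ± 1.72 in OMP to 5.79 ± 0.59 in Sus, with every neighbouring pair overlapping.

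Pecam1 was the flattest of the junction genes outside Sus. Its brightest probe read 6.21, 6.64 and 7.03 in OM, 6.86, 7.14 and 7.08 in Sox2GBC, 7.01, 7.05 and 7.28 in Neurog1-Ctrl, and 6.80, 7.05 and 6.21 in Neurog1-OBX. It read 6.94, 6.93 and 6.55 in OMP, 7.37, 7.20 and 7.27 in OMP-OBX, and 5.71, 4.82 and 5.68 in Sus. All 3 Sus arrays were below every other mucosal array, the probe was detected on 1 of them, and the 6 remaining groups overlapped their neighbours in order. Unlike Cldn5 and Esam, it had no excess in replicate 2 of OMP. Its 2 other probes disagreed in level: 1 was detected on 13 of 21 mucosal arrays, with its highest reading, 7.35, in Sox2GBC, and the other on none. Pecam1 is also a gene of leukocytes and platelets.

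Cdh5, which encodes the defining adherens junction protein of endothelium, was barely measurable. Its better probe passed detection on 2 of 21 mucosal arrays, replicate 1 of Neurog1-OBX (6.28) and replicate 2 of OMP (5.74). These are also the highest arrays of their groups for Cldn5 and Flt1. The Sox2GBC arrays read 5.72, 5.53 and 5.96 without passing detection, and the other Cdh5 probe was detected on no array. Signals of Cdh5, Kdr and Tie1 at this level give no direction between groups.

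Flt1, a VEGF receptor gene, followed Cldn5. It read 6.75, 7.45 and 7.54 in Sox2GBC and 6.51, 7.39 and 6.43 in OMP-OBX, and was detected on all arrays of both. It read 4.82, 5.85 and 6.69 in OM, 4.99, 6.41 and 5.20 in Neurog1-Ctrl, 6.37, 5.31 and 4.78 in Neurog1-OBX, and 4.55, 7.36 and 4.74 in OMP, with 1 of 3 arrays detected in each. In these 4 groups 1 library therefore carried the signal: replicate 3 of OM, replicate 2 of Neurog1-Ctrl, replicate 1 of Neurog1-OBX and replicate 2 of OMP, each also the highest of its group for Cldn5. Sus read 4.83, 4.61 and 5.28, with no array detected. Group means were 7.25 ± 0.43 in Sox2GBC, 6.78 ± 0.53 in OMP-OBX, 5.79 ± 0.94 in OM, 5.55 ± 1.57 in OMP, 5.53 ± 0.76 in Neurog1-Ctrl, 5.49 ± 0.81 in Neurog1-OBX and 4.91 ± 0.34 in Sus, and neighbouring groups overlapped throughout. The other Flt1 probe was detected on no array, including mREF.

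Kdr, the main signalling VEGF receptor gene of endothelium, was not detected by either probe on any of 24 arrays, with a lowest mucosal detection p of 0.0556. Tie1 was not detected by its probe either, with a lowest mucosal detection p of 0.016. Its 2 highest intensities in Sox2GBC were 31.3 and 33.7, beside 32.8 in replicate 2 of OMP, and on the normalized scale its highest reading was 5.68 in replicate 2 of OMP-OBX. For Kdr and Tie1, and for most arrays of Cdh5, low RNA and a probe that does not respond cannot be told apart, so a probe not detected is no measure of absent RNA. Of the Flt1 probes, for instance, 1 was never detected while the other read up to 9.21.

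Tek, the angiopoietin receptor gene, was low but ordered. It read 6.56, 6.85 and 7.05 in Sox2GBC, above every other mucosal array. It read 6.06, 6.41 and 6.01 in Neurog1-OBX, 6.04, 5.79 and 5.70 in Neurog1-Ctrl and 5.33, 5.68 and 6.00 in OM. The Neurog1-Ctrl probe passed detection on none of those 3 arrays although its deposited intensities (48.2 to 67.2) were above those of the detected OM replicate 1 (20.4), on arrays whose negative controls differ in spread. It read 4.98, 5.81 and 4.94 in OMP, 5.16, 5.24 and 5.75 in OMP-OBX and 5.88, 4.83 and 5.90 in Sus. Group means were 6.82 ± 0.24 in Sox2GBC, 6.16 ± 0.22 in Neurog1-OBX, 5.84 ± 0.17 in Neurog1-Ctrl, 5.67 ± 0.34 in OM, 5.54 ± 0.61 in Sus, 5.38 ± 0.32 in OMP-OBX and 5.24 ± 0.49 in OMP, and from Neurog1-OBX downwards each group overlapped the next. Tek was thus the only tested member whose lowest group was not Sus.

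**Figure D2:**
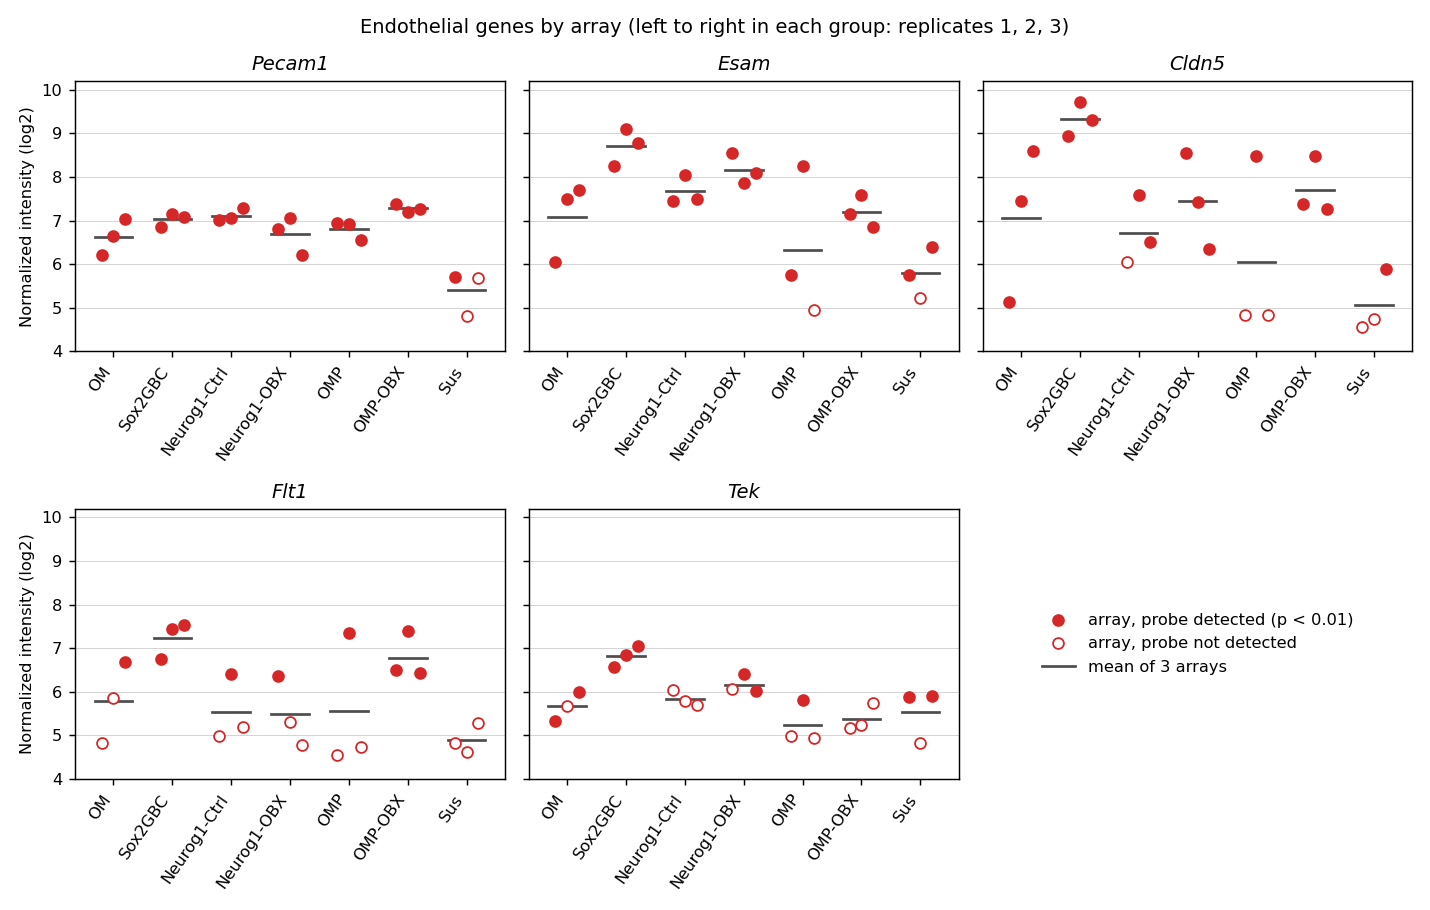
Normalized log2 intensity of the 5 tested members (panels) on each of the 21 mucosal arrays, in 7 groups along the horizontal axis; filled points are arrays where the probe was detected, open points arrays where it was not, and bars are means of 3. Sox2GBC arrays are above all others for Cldn5 (8.93 to 9.72) and Tek (6.56 to 7.05), Sus arrays are below all others for Pecam1 (4.82 to 5.71), and replicate 2 of OMP stands above the other OMP arrays for Esam, Cldn5, Flt1 and Tek.

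Against the whole mucosa, Sox2GBC was higher for Esam and Tek. Esam was 3.10-fold higher (log2 difference 1.63 ± 0.59, SE, adjusted p = 0.039, limma) and Tek 2.22-fold higher (1.15 ± 0.29, adjusted p = 0.00478), and the arrays of the groups did not overlap for these, Cldn5 and Flt1, as for 43.5% of all tested genes. Cldn5 differed by 2.26 ± 0.87 (adjusted p = 0.0526), Flt1 by 1.46 ± 0.62 (adjusted p = 0.076) and Pecam1 by 0.40 ± 0.26 (adjusted p = 0.249), and these 3 did not pass. Cldn5 sat at the threshold: it was called on the authors' processed values (1.53, adjusted p = 0.0203), with no background correction (1.79, adjusted p = 0.0256), with an offset of 50 (1.88, adjusted p = 0.0273), with the noise class block (1.76, adjusted p = 0.0348) and with the replicate block (2.26, adjusted p = 0.0382). So 2 of the 5 tested members, or 2 of 8, were called higher and 0 lower, where 16.9% of all tested genes were called higher, and 32.8% in either direction. The median difference of the 5 was 1.46, beside 0.02 for all genes. A gene could pass the filter through the group where it is high, so counts over the tested members describe them and support nothing about the 8. The second Pecam1 probe differed by 1.20 ± 0.39 (adjusted p over all probes 0.0248), so the Pecam1 probes disagree on the call. With median scaling in place of quantile normalization neither was called (Esam 1.20, adjusted p = 0.116, Tek 0.78, adjusted p = 0.0756) and Pecam1 stood at -0.05. Without replicate 1 of OM, the Esam difference was 1.11 (adjusted p = 0.176), and without replicates 2 or 3 of Sox2GBC its adjusted p was 0.117 and 0.0956. Without replicate 3 of OM, Cldn5 (3.02, adjusted p = 0.0198) and Flt1 (1.91, adjusted p = 0.0397) were called as well. Within the noise class that holds 2 arrays of each group the differences were 1.08 for Esam, 1.30 for Cldn5, 0.83 for Flt1, 0.87 for Tek and 0.16 for Pecam1.

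The other sorts showed no higher call against OM. In Sus, Pecam1 fell by 1.22 on the log2 scale (± 0.26, adjusted p = 0.000579), the 1 call among 5 tested, where 25.2% of all genes were called lower and 48.5% in either direction. The remaining differences in Sus were -2.00 ± 0.87 for Cldn5 (adjusted p = 0.0647), -1.29 ± 0.59 for Esam (adjusted p = 0.0779), -0.88 for Flt1 and -0.13 for Tek. Without replicate 1 of OM, Cldn5 (-2.96, adjusted p = 0.0074) and Esam (-1.81, adjusted p = 0.0197) were called too. Cldn5 was also called with the replicate block (-2.00, adjusted p = 0.0475) and with the noise class block (-1.72, adjusted p = 0.023). Of the 5 tested members, limma called 0 in Neurog1-Ctrl (36.7% of all genes), 0 in Neurog1-OBX (34.8%), 0 in OMP (20.5%) and 0 in OMP-OBX (27.4%). At an unadjusted p under 0.05 the same 4 comparisons held 0, 0, 0 and 1 member, the last being Pecam1 in OMP-OBX (0.65 ± 0.26, adjusted p = 0.0643). Without replicate 3 of OM that gene was called (0.85, adjusted p = 0.0325), as it was with the noise class block (1.19, adjusted p = 0.0233) and with an offset of 50 (0.50, adjusted p = 0.0469). With array weights Cldn5 (-1.61, adjusted p = 0.0198) and Flt1 (-1.02, adjusted p = 0.0485) were called lower in Neurog1-Ctrl. In OMP, Cldn5 differed from OM by -1.0 ± 0.87 and Esam by -0.76 ± 0.59, and without replicate 2 of OMP these were -2.22 (adjusted p = 0.0488) and -1.72 (adjusted p = 0.0109).

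The separation was clearest between the sorts of the ∆Sox2-GFP line, which share mouse line, reporter and the CD54 gate. In Sus against Sox2GBC all 5 tested members were lower, and the arrays of the groups did not overlap for any of them, as for 59.0% of all tested genes. Cldn5, detected on 1 of 3 Sus arrays, differed by -4.26 ± 0.87 on the log2 scale (adjusted p = 0.000406), Esam, detected on 2 of 3, by -2.92 ± 0.59 (adjusted p = 0.000354) and Pecam1, detected on 1 of 3, by -1.62 ± 0.26 (adjusted p = 2.82e-05). With Sus this near background, such differences depend on how the lowest signals were corrected, and no fold is given for these genes. Among receptors, Flt1, not detected in Sus, was at least 2.87-fold lower (-2.34 ± 0.62, adjusted p = 0.00358), and Tek, detected on 2 of 3 Sus arrays, differed by -1.28 ± 0.29 (adjusted p = 0.000995). The count of 5 lower calls of 5 tested, or 5 of 8, stands beside 28.8% of all genes called lower and 52.0% called in either direction. The median of the 5 was -2.34, beside -0.12 for all genes. The 5 calls were kept under all 14 other settings and when each of the 6 arrays was left out in turn, although their sizes depend on the scale, since on the authors' processed values the differences lay between -2.63 (Cldn5) and -0.60 (Tek). Within the noise class holding 1 array of each, the differences were between -4.57 (Cldn5) and -2.22 (Tek), and in the class with 1 Sus and 2 Sox2GBC arrays between -3.44 (Cldn5) and -0.80 (Tek). Icam1, the gene of the gate antigen, also fell between these sorts, by 1.19 on the log2 scale (adjusted p = 0.00358). It was detected on all 3 arrays of Sox2GBC (6.61 ± 0.38) and on none of Sus (5.42 ± 0.22), beside 7.95 ± 0.64 in OM, and its part in the result was not tested.

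Along the neuronal lineage, Neurog1-Ctrl was lower than Sox2GBC for Cldn5 and Tek. Cldn5, detected on 2 of 3 Neurog1-Ctrl arrays, was 6.09-fold lower (log2 difference -2.61 ± 0.87, adjusted p = 0.0451) and Tek at least 1.84-fold lower (-0.98 ± 0.29, adjusted p = 0.0249). This is 2 of 5 tested members, where 9.03% of all genes were called lower and 17.0% in either direction. Flt1 differed by -1.71 ± 0.62 (adjusted p = 0.0627), Esam by -1.04 ± 0.59 (adjusted p = 0.252) and Pecam1 by 0.09 ± 0.26 (adjusted p = 0.864). Both calls sit near the threshold. With median scaling Tek was not called (-0.69, adjusted p = 0.118), and with no filter Cldn5 was not (-2.61, adjusted p = 0.0834). Cldn5 lost its call without any 1 of the 3 Sox2GBC arrays or replicate 1 or 3 of Neurog1-Ctrl (differences from -2.80 to -2.27, adjusted p from 0.0732 to 0.163). Tek lost it without replicate 2 or 3 of either group (-0.96 to -0.86, adjusted p from 0.0656 to 0.0949), and Flt1 gained a call without replicate 2 of Neurog1-Ctrl (-2.15, adjusted p = 0.0392). Flt1 was also called with an offset of 50 (-1.19, adjusted p = 0.0416), with the replicate block (-1.71, adjusted p = 0.0493), with the noise class block (-1.83, adjusted p = 0.0249), without the lowest noise class (-1.71, adjusted p = 0.0415), in a fit of only these groups (-1.71, adjusted p = 0.0216) and with array weights (-1.77, adjusted p = 0.00482). In OMP against Neurog1-Ctrl limma called 0 of 5 (36.0% of all genes), with 2 at an unadjusted p under 0.05: Esam (-1.35 ± 0.59, adjusted p = 0.0812) and Tek (-0.61 ± 0.29, adjusted p = 0.109). Without replicate 2 of OMP both were called, at -2.31 (adjusted p = 0.000639) and -0.89 (adjusted p = 0.0274). Each of these comparisons also crosses mouse lines, so cell stage cannot be told apart from line.

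**Figure D3:**
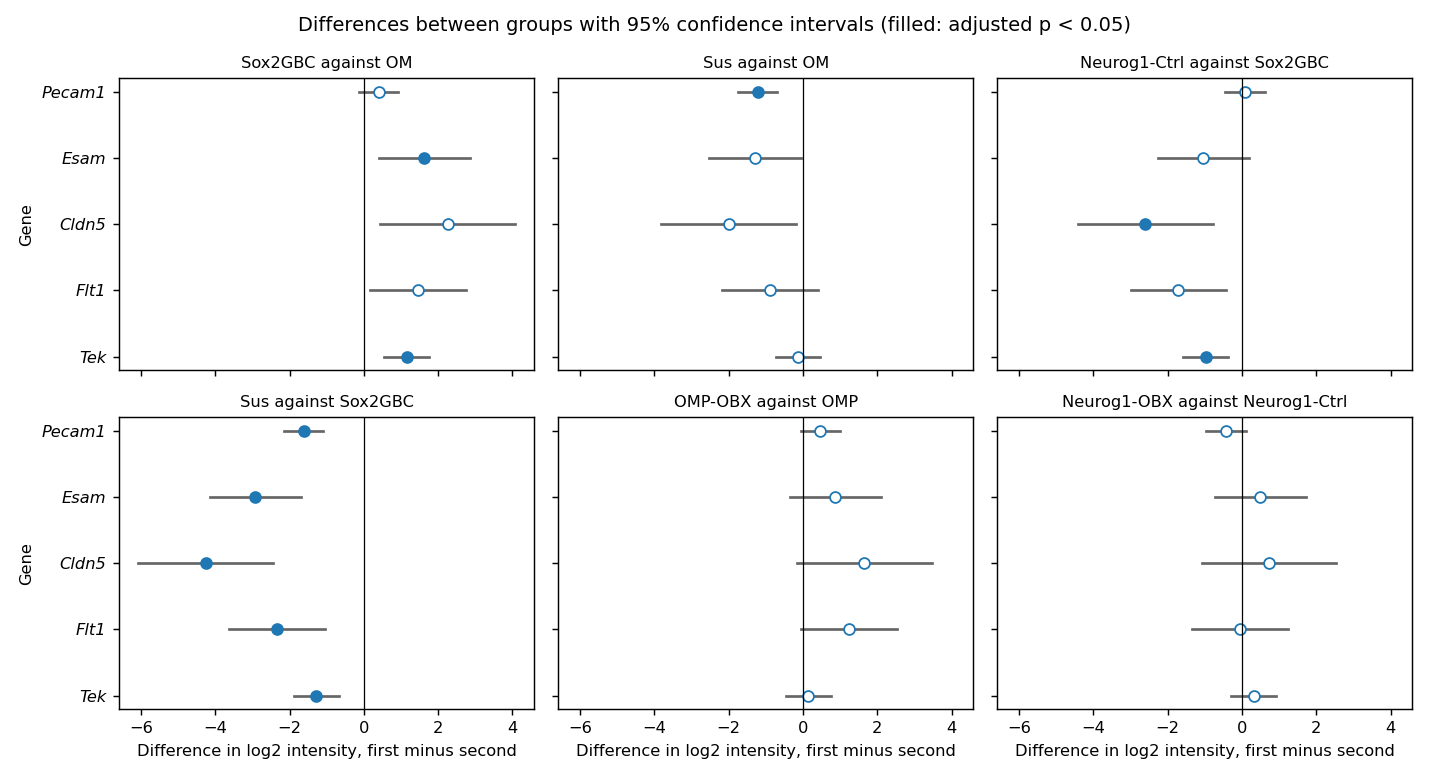
Log2 difference (first group minus second) of the 5 tested members in 6 comparisons, as points with 95% confidence intervals, filled where the adjusted p is under 0.05. In Sus against Sox2GBC all 5 points are filled and lie between -4.26 and -1.28, and in the 2 bulbectomy comparisons none is filled.

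Bulbectomy, which removes the target of the neurons and raises their turnover, moved no member past the threshold in the fit without a block. In OMP-OBX against OMP limma called 0 of 5 (8.66% of all genes), with 0 at an unadjusted p under 0.05, and all 5 differences were above 0. Cldn5 differed by 1.65 ± 0.87 (adjusted p = 0.292), Flt1 by 1.23 ± 0.62 (adjusted p = 0.264), Esam by 0.87 ± 0.59 (adjusted p = 0.437), Pecam1 by 0.47 ± 0.26 (adjusted p = 0.307) and Tek by 0.14 ± 0.29 (adjusted p = 0.836). The comparison rests on replicate 2 of OMP: without it Cldn5 (2.87, adjusted p = 0.0255), Flt1 (2.13, adjusted p = 0.0144) and Esam (1.84, adjusted p = 0.0129) were called higher after bulbectomy. With noise class as a block Cldn5 was called in this comparison (2.42 ± 0.68, adjusted p = 0.0446). In the noise class that holds all 3 OMP-OBX arrays and replicate 3 of OMP, the differences were 2.87 for Cldn5, 2.23 for Esam, 2.04 for Flt1, 0.73 for Pecam1 and 0.45 for Tek. In Neurog1-OBX against Neurog1-Ctrl limma called 0 of 5 (0.379% of all genes), 0 at an unadjusted p under 0.05, with differences from -0.43 (Pecam1) to 0.72 (Cldn5). The difference between the 2 lesion effects was called for 0 of 5 (1.97% of all genes). It was under an unadjusted p of 0.05 for Pecam1 alone, at 0.90 ± 0.36 (adjusted p = 0.225). The intervals allow sizeable changes: that of Cldn5 in OMP-OBX against OMP ran from -0.17 to 3.47.

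The reference RNA separated the members by gene rather than as a set. On the scale of all 24 arrays, Flt1 read 9.08, 9.21 and 9.21 in mREF against 4.81, 5.82 and 6.66 in OM. OM was thus lower by 3.40 ± 0.58 in log2 units (adjusted p = 2.36e-05). Flt1 was detected on 1 of 3 OM arrays, so no fold is given. Over the alternatives the difference ran from -3.85 to -2.18. Pecam1 read 7.62, 7.42 and 7.39 in mREF against 6.19, 6.62 and 7.01 in OM (-0.87 ± 0.24, adjusted p = 0.00329). Esam and Cldn5 were not detected in mREF, and OM was at least 2.42-fold higher for Esam (2.08 ± 0.56, adjusted p = 0.00248) and at least 2.39-fold higher for Cldn5 (2.44 ± 0.82, adjusted p = 0.0123). Tek differed by 0.47 ± 0.29 (adjusted p = 0.16). The 2 higher and 2 lower calls of 5 stand beside 34.4% of the 12495 genes tested there called higher, 31.8% lower and 66.2% in either direction. With median scaling Pecam1 lost its call (-0.56, adjusted p = 0.118), as it did without the 4 arrays of the lowest noise class (-0.59, adjusted p = 0.0716). Without replicate 3 of OM the Cldn5 difference was 1.68 (adjusted p = 0.0947).

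The members varied together from array to array within groups. Over 21 arrays, deviations from the group means correlated with r of 0.97 for Cldn5 and Flt1, 0.91 for Esam and Cldn5 and 0.90 for Esam and Flt1. The lowest of the 10 pairs was 0.44, for Pecam1 and Flt1, and Tek correlated with Pecam1 at 0.70 and with Cldn5 at 0.53. Genes of 1 array share its RNA pool, noise and normalization, so these values describe the arrays. The mean of the 5 tested members ran from 7.47 to 8.05 in Sox2GBC, the 3 highest of 21 arrays. It ran from 5.51 to 7.20 in OM, from 6.31 to 6.98 in Neurog1-Ctrl, from 6.28 to 7.26 in Neurog1-OBX and from 6.71 to 7.18 in OMP-OBX. In OMP it was 5.41, 7.37 and 5.20, and in Sus 5.35, 4.84 and 5.83. Thus OMP replicate 2 ranked directly below the Sox2GBC arrays, while the other OMP arrays lay among those of Sus.

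Genes with the most similar profile over the 21 arrays, measured as Pearson's r with the mean standardized profile of the tested members, were Aqp1 (0.931), Egfl7 (0.925), Robo4 (0.901), Bpifb6 (0.870), Mia (0.870), Ina (0.861), Ramp2 (0.856) and Cdcp3 (0.851). Egfl7, a protein secreted by endothelium, Robo4, an endothelial guidance receptor, and Ramp2, a partner of the adrenomedullin receptor, were on the list of other endothelial genes. Aqp1, a water channel, averaged 9.94 in Sox2GBC, 8.61 in OM, 7.86 in OMP and 6.31 in Sus. Ina, a neuronal intermediate filament gene, averaged 9.63 in Sox2GBC and 6.64 in Sus, and OMP-OBX is second by the members' mean while Neurog1-Ctrl is second for Ina. These genes were chosen for their likeness, so the shared pattern is no result.

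Of 28 other endothelial genes listed, 13 were tested. Their mean log2 level tracked the mean standardized profile of the tested members, with r of 0.91 across the 21 arrays and 0.89 within groups. In Sox2GBC against OM, 3 of the 13 rose and 0 fell, with a median of 0.63, beside 16.9% of all genes higher and 32.8% called in either direction: Robo4 (1.83 ± 0.42, adjusted p = 0.00244), Rasip1, a vascular GTPase effector (1.89 ± 0.32, adjusted p = 0.000176), and Mmrn2 (1.29 ± 0.37, adjusted p = 0.0111), the last named after its value was seen. Mmrn2 was detected on only 1 of 3 Sox2GBC arrays and on no OM array, so its difference lies near background. In Sus against Sox2GBC, 10 of the 13 fell and 0 rose, with a median of -1.49, beside 28.8% of all genes lower and 52.0% called in either direction. Among them were Robo4 (-2.64), Egfl7 (-2.43), Ramp2 (-1.94) and Vwf (-1.56). Robo4 was not detected in Sus, and Ramp2 and Vwf were detected on 2 of 3 Sus arrays. As for the members, such differences depend on how the lowest signals were corrected. The list was not uniform. Plvap, a protein of fenestrated capillaries, and Vwf, the clotting factor stored by endothelium, averaged 7.68 ± 0.48 and 7.84 ± 0.42 in OMP, above their 6.61 ± 0.48 and 7.41 ± 0.61 in Sox2GBC, where Esam, Cldn5, Flt1 and Tek had their highest group means. In Neurog1-Ctrl against OM, Plvap (-2.04, adjusted p = 0.000596), Vwf (-1.29, adjusted p = 0.0392) and Ly6c1 (-1.14, adjusted p = 0.0453) fell while Rasip1 rose (2.04, adjusted p = 6.08e-05). Rasip1 averaged 8.80 ± 0.10 in Neurog1-Ctrl and 8.65 ± 0.45 in Sox2GBC. Among the 15 listed genes not tested were the endothelial genes Eng, Cd34, Erg and Icam2, each detected on at most 2 mucosal arrays.

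The ligands, the coreceptors and the junction partners differed in how they followed the members. Across the 21 arrays, r with the members' mean standardized profile was 0.44 for ligands, 0.71 for coreceptors and regulators and -0.72 for junction partners. Within groups it was 0.56, 0.09 and -0.66. Vegfa, the main VEGF ligand, was detected on all 21 mucosal arrays, with means from 6.77 ± 0.45 in OMP to 8.86 ± 0.35 in Neurog1-OBX, and did not pass the test in Sox2GBC (0.14 ± 0.30, adjusted p = 0.753) or Sus against OM (-0.35 ± 0.30, adjusted p = 0.365). Angpt2, the TIE2 ligand that destabilises vessels, fell in Sus against Sox2GBC (-1.15 ± 0.38, adjusted p = 0.016), the 1 call of 3 tested ligands. In that comparison 28.8% of all genes were called lower and 52.0% in either direction. Of 5 tested coreceptors and regulators, Nrp2 (1.80 ± 0.32, adjusted p = 0.000276) and Plxnd1 (1.59 ± 0.27, adjusted p = 0.000194), which also serve semaphorin signals in neurons, rose in Sox2GBC against OM. There 16.9% of all genes were called higher and 32.8% in either direction. In Sus against Sox2GBC, 3 of the 5 fell, beside 28.8% of all genes lower and 52.0% in either direction: Plxnd1 (-3.78), Nrp2 (-2.36) and Nrp1 (-1.56). Nrp2 was not detected in Sus, and Plxnd1 was detected on 2 of 3 Sus arrays. Ptprb, another of the 5, is also counted among the 13 other endothelial genes. Of 10 tested cytoplasmic and junctional partners that epithelia also use, 5 rose and 0 fell in Sus against Sox2GBC, where 52.0% of all genes were called, among them Tjp1 (1.13, adjusted p = 0.0258), Cgnl1 (0.93, adjusted p = 0.00659) and Afdn (1.18, adjusted p = 0.00414).

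Among markers of other cells found near vessels, the leukocyte and the pericyte and smooth muscle lists followed the members within groups but not in every comparison. Of 11 tested leukocyte genes, 10 fell in Sox2GBC against OM, with a median of -3.38 beside the 1.46 of the members and 32.8% of all genes called. In Sus against OM 11 fell, beside 25.2% of all genes called lower and 48.5% in either direction. The mean log2 level of the 11 was 8.89 to 9.94 in OM and 5.63 to 7.0 over all sorted arrays, and Ptprc (4 probes) and Itgam (1 probe), which define leukocytes, were not detected on any mucosal array, OM included. Within groups, the leukocyte mean and the pericyte and smooth muscle mean followed the members' mean standardized profile, each with r of 0.76. Libraries high for the members within their group thus also tended to be high for these lists within it. Across the 21 arrays without regard to group, r was only 0.18 for leukocyte and 0.41 for pericyte and smooth muscle genes. The r within groups was 0.63 for lymphatic, 0.31 for red cell, 0.27 for fibroblast and -0.36 for platelet genes, and 0.23 for the 1 tested ensheathing glia gene. Of 5 tested pericyte and smooth muscle genes, 0 were called in Sox2GBC against OM. Acta2, the smooth muscle actin, ran from 6.72 to 11.69 in OM, averaged 9.82 ± 0.46 in Sox2GBC and was not detected in Sus (5.35 ± 0.45), a fitted difference of -4.47 between these sorts (adjusted p = 0.00234). Myh11, the smooth muscle myosin, fell there too (-1.46 ± 0.48, adjusted p = 0.0155, named after its value was seen). Rgs5, a pericyte gene, stayed within 10.64 ± 0.53 in Sox2GBC and 10.87 ± 0.44 in Sus. Pdgfrb, which defines pericytes, was detected on 1 mucosal array. Of 4 tested fibroblast genes, 3 fell in Sox2GBC against OM, among them Dcn (-2.12) and Pdgfra (-1.37). Of 4 tested lymphatic genes, Pdpn fell there (-1.41, adjusted p = 0.00367), while Lyve1 and Flt4 were not detected on any mucosal array. Of 2 tested platelet genes Gp1bb rose (1.42, adjusted p = 0.000625) and Itga2b did not pass (-0.31), and Pf4 was detected on at most 2 mucosal arrays. Of 8 tested immature neuron genes, 7 rose and 0 fell in Sox2GBC against OM (median 1.56). There 16.9% of all genes were called higher and 32.8% in either direction. In Sus against Sox2GBC 7 fell and 0 rose (median -2.37). There 28.8% of all genes were lower and 52.0% called in either direction. The immature neuron mean had r of 0.70 with the members' profile across arrays and 0.49 within groups. High Sox2GBC and low Sus levels were thus not particular to vascular genes. The part of any of these cells in the members' levels was not tested.

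**Figure D4:**
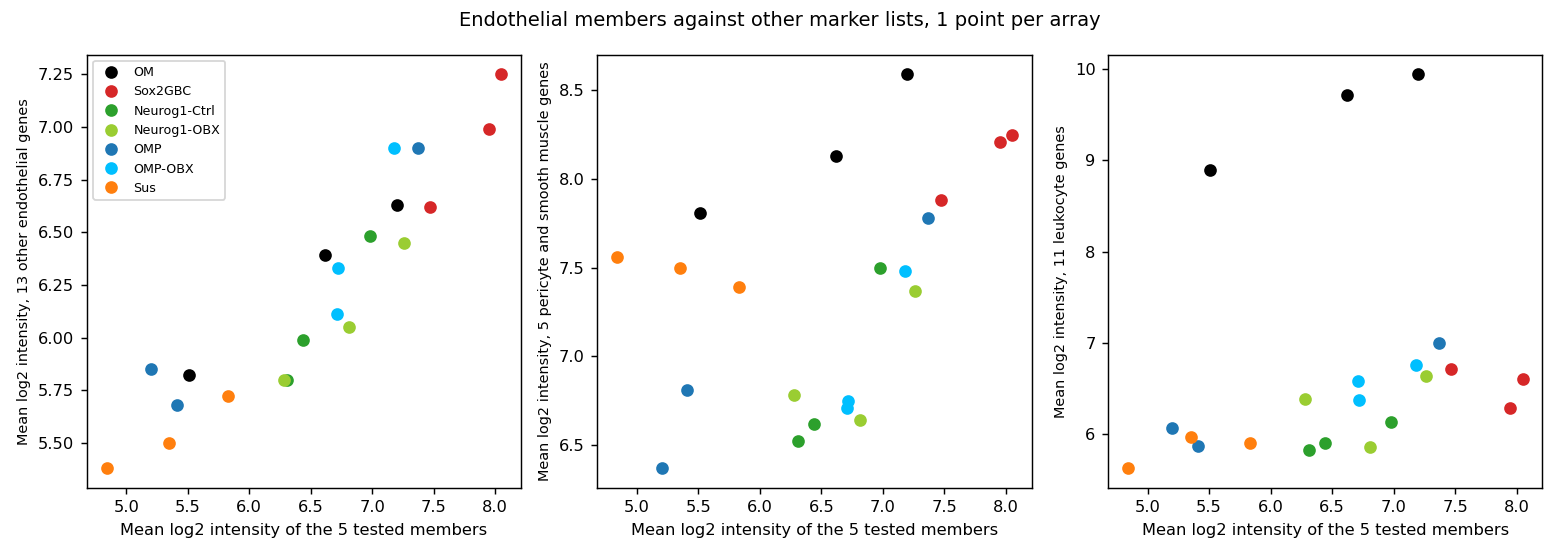
Mean log2 intensity of the 5 tested members (horizontal axis) against that of 13 other endothelial genes, 5 pericyte and smooth muscle genes and 11 leukocyte genes (vertical axes), 1 point per mucosal array and colour by group. The other endothelial genes rise with the members (r = 0.91, taken with the members' mean standardized profile rather than with the plotted mean). The OM arrays stand apart at 8.89 to 9.94 for leukocyte genes. The Sus arrays, at member means of 4.84 to 5.83, lie among the lowest with replicates 1 of OM and 1 and 3 of OMP. The pericyte and smooth muscle means of Sus are 7.39 to 7.56.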

How the data were processed

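Bead intensity values in the non-normalized deposited table include negative values, as after background subtraction, and were exported from GenomeStudio per the submitters' processing notes (version not given in the sources used here), with a detection p-value per probe and array. The authors' processed table holds linear intensity values of a common distribution (column medians 120.7 to 121), by a method not given in the sources used here. Arrays had 33.9% to 48.3% of probes detected, and 3 arrays per group limit the precision. Background was corrected with normexp from the detection p-values (limma 3.58.1, R 4.3.3, offset 16), followed by quantile normalization and log2. A probe entered with a detection p under 0.01 on 3 or more arrays, and the brightest such probe stood for its gene, which left 11870 genes on 21 arrays and 12495 on 24, the latter for OM against mREF only. Gene names came from the platform annotation, where 34885 probes had 1 symbol, 18 several and 10378 none. Groups were compared with limma (moderated statistics, 14 residual and 18.92 total degrees of freedom, Benjamini-Hochberg over all genes, called under 0.05), a fit tested on simulated data. The simulated noise was independent by gene and array, without noise classes or arrays that stand apart. It therefore says nothing about the fit under those features of these arrays. Where the lower group was detected on no array, the fold is a lower bound, from the higher group's mean over, per array, the higher of the lowest signal among detected probes and the probe's own. Members and lists were chosen with earlier results of these data known. Named genes were all members, up to 4 tested genes per list with the largest mean difference from OM, and the 8 genes most like the members. Replicate numbers pair samples only for OM and OMP, by correlations of deviations of 0.53, 0.11 and 0.25, and the block changed no call of a member there. Alternatives covered background, normalization, offset, filter, probe choice, samples in the fit, array weights, blocks on replicate number and noise class, and each array left out; a fit without the 4 arrays of the lowest noise class was added after the data were seen. 1 OMP column numbered 4 was taken as replicate 3. Figures were drawn with matplotlib.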

Additional observations from a re-analysis of the deposited data

How the results depend on the processing

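In Sus against Sox2GBC, 5 members were called under each alternative, and no called difference of a member changed sign under any alternative run. In the other comparisons the number of members called moved. In Sox2GBC against OM (2) it was 1 with cyclic loess, with no filter and without the lowest noise class, 0 with median scaling, 3 with no background correction, the authors' processed values, an offset of 50, the mean of all probes, the replicate block and the noise class block, and 1 to 4 when 1 array was left out. In Neurog1-Ctrl against OM (0) it was 2 with array weights. In Neurog1-OBX against OM and against Neurog1-Ctrl it stayed 0. In OMP-OBX against OM (0) it was 1 with an offset of 50 and with the noise class block, and 0 to 1 with 1 array left out. In OMP against OM and against Neurog1-Ctrl (0) it was 0 to 2 with 1 array left out. In Sus against OM (1) it was 2 with median scaling, with the replicate block and with the noise class block, 3 without the lowest noise class, 4 with array weights, and 1 to 3 with 1 array left out. In Neurog1-Ctrl against Sox2GBC (2) it was 1 with median scaling and with no filter, 3 with an offset of 50, the replicate block, the noise class block and without the lowest noise class, 4 with only the groups compared and with array weights, and 0 to 2 with 1 array left out. In OMP-OBX against OMP (0) it was 1 with the noise class block and 0 to 3 with 1 array left out. In OM against mREF (4) it was 3 to 5 over the alternatives. Replicate numbers pair neither Sus with OM by the check used, nor Sox2GBC with OM or Neurog1-Ctrl, so the replicate block values there are no paired results. The causes were not tested.

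Counts over all genes moved too. With array weights they were 6696 for 4362 (Neurog1-Ctrl against OM), 5947 for 3252 (OMP-OBX against OM), 4190 for 2019 (Neurog1-Ctrl against Sox2GBC), 591 for 45 (Neurog1-OBX against Neurog1-Ctrl) and 793 for 234 (bulbectomy interaction). With median scaling they were 2711 for 4128 (Neurog1-OBX against OM), 1477 for 2431 (OMP against OM), 669 for 1028 (OMP-OBX against OMP) and 114 for 234 (interaction). Fits of only the groups compared gave 980 for 2431 (OMP against OM), 182 for 45 (Neurog1-OBX against Neurog1-Ctrl) and 371 for 234 (interaction). The noise class block gave 1294 for 3252 (OMP-OBX against OM) and 94 for 45 (Neurog1-OBX against Neurog1-Ctrl), where leaving out the lowest noise class gave 145. Every probe on its own gave 3127 for 2019 (Neurog1-Ctrl against Sox2GBC), over more features. Median scaling shifted the median of all genes by -0.27 in Sox2GBC against OM, 0.38 in Neurog1-Ctrl against Sox2GBC and -0.17 in Sus against OM. The share of higher calls went from 51.4% to 22.4%, from 46.9% to 77.0% and from 48.0% to 34.4% there, and from 49.0% to 22.9% in OMP-OBX against OMP. Signal over background is a limit, since 3 of the 8 genes could not be tested.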

Other observations

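Several genes listed as markers of blood and vessel-wall cells were highest in Sus, the sort with the lowest endothelial signal. Notch3, a receptor of pericytes and smooth muscle, averaged 11.33 ± 0.33 (SD, n = 3) in Sus, 8.40 ± 0.88 in OM and 8.45 ± 0.25 in Sox2GBC, and rose by 2.93 ± 0.38 (SE) against OM (adjusted p = 3.48e-06, limma). Itga2b, the platelet integrin subunit, averaged 10.02 ± 0.37 in Sus and 7.41 ± 0.62 in OM and rose by 2.62 ± 0.34 (adjusted p = 3.39e-06). Alas2, the erythroid haem synthesis enzyme, was detected on all 3 Sus arrays and rose by 2.12 ± 0.34 against OM (adjusted p = 4.6e-05), while Hba-a1, an alpha globin gene, was not detected in Sus (fitted difference -3.59 ± 0.99, adjusted p = 0.00568). Acta2 of smooth muscle and the platelet gene Gp1bb were not detected in Sus either, with fitted differences from OM of -4.40 ± 1.11 (adjusted p = 0.00296) and -0.87 ± 0.27 (adjusted p = 0.0132). These lists therefore held genes that moved in opposite directions in Sus.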
